A study of Mus musculus with 2 samples.

Results

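Tetraspanin genes and a small set of exosome machinery genes were examined in liver macrophages of WT and FABP7 KO mice bearing MC38 tumors. The members were chosen by symbol, as every Tspan gene with a number together with Cd9, Cd37, Cd53, Cd63, Cd81, Cd82, Cd151, Tsg101, Pdcd6ip, Rab27a and Rab27b. This gave 31 of the 22322 genes in the expression table, of which 27 encode tetraspanins. Messenger RNA was sequenced from 1 library per genotype, so no difference between the libraries has a replicate check, and neither a p-value nor an SD can be given. The WT mice were C57BL/6, and the KO mice were a systemic FABP7 knockout (FABP7 -/-) on a C57BL/6 J background, whose genotype is written as a knockdown in 1 label and as KO in the title. Per the study's methods all mice were male and 6 to 8 weeks old. Both genotypes received MC38 cells, a mouse colon carcinoma line, into the spleen (500000 cells in 100 µl of PBS), and 10 days later (day 10) macrophages of the metastatic liver were collected by positive selection for F4/80. The sources used here do not give the number of mice per library. Because the deletion is in every cell of the KO mice, an effect inside macrophages and an effect of the altered animal cannot be told apart.

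Tetraspanins are small proteins that cross the membrane several times and gather integrins, proteases and immune receptors into patches of the cell surface and of endosomes. Exosomes are vesicles that bud into multivesicular endosomes and leave the cell when these fuse with the surface, and their membrane carries CD9, CD63 and CD81, which is why these proteins serve as exosome markers. TSG101 and ALIX (the product of Pdcd6ip) belong to the ESCRT pathway that buds the vesicles inward, and the Rab27 GTPases bring the multivesicular endosomes to the plasma membrane. Macrophages carry many tetraspanins and use them in adhesion, fusion and antigen presentation.

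The family is recognized by a Cys-Cys-Gly motif in its large extracellular loop. The codons for this motif were found in the coding sequence of 27 of 27 tetraspanins, against 565 (2.62%) of 21576 protein-coding genes in the GENCODE M21 annotation of GRCm38, where a search of each coding sequence in its reading frame and on its own strand was made. None of the other 4 members holds it. The coding sequences of the family run from 204 to 332 codons, and the motif lies between codons 128 and 211, counted from 1 at the start codon and taken as the first motif past codon 100. In 24 of the 27 genes an intron falls inside the window of 3 motif codons and 4 codons on either side. The windows of 6 tetraspanins whose levels are described further on are printed here, 5′ to 3′ on the coding strand with the motif codons in capitals, to show that the same 3 residues are written with different codons and sit in unlike surroundings. For each the coordinates span the window on GRCm38 with its intron.
Cd81, codon 156, chr7:143066347-143066687, plus strand: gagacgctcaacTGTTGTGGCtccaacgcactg
Cd53, codon 144, chr3:106763266-106767332, minus strand: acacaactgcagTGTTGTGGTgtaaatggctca
Cd37, codon 174, chr7:45235617-45236120, minus strand: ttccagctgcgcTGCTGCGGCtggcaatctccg
Cd63, codon 145, chr10:128912058-128912187, plus strand: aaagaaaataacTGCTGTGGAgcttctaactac
Tspan7, codon 150, chrX:10584132-10585523, plus strand: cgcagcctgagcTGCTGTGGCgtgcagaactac
Tspan32, codon 155, chr7:143015055-143015607, plus strand: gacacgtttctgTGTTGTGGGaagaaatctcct

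Levels are FPKM, a fragment count divided by both gene length and library depth, as the authors deposited them. Ratios were computed as log2((KO + 1)/(WT + 1)) from FPKM, and a gene was counted as higher or lower in KO from a ratio of 1 or -1 onward, a convention of size rather than a test. Ratios were read for genes that reached 1 FPKM in WT, in KO or in both. Folds are given without the added 1, with a 95% interval (exact Clopper-Pearson) from fragments estimated out of the FPKM, the exon length and a depth of about 17750000 fragments in WT and 17600000 in KO. These intervals cover counting error only and hold nothing of the spread between mice. Fabp7 (ENSMUSG00000019874) was at 354 FPKM in WT and 0.69 in KO, as the labels state. Macrophage and Kupffer cell markers were high in both libraries, with Adgre1, the gene of F4/80, at 864 FPKM in WT and 925 in KO, and Clec4f, a Kupffer cell lectin, at 3188 and 4156 FPKM.

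Of the 31 members, 22 reached 1 FPKM in a library, 20 of them in both and 2 (Tspan2 and Tspan18) in the KO library alone. Cd37 and Tspan7 were the 2 members counted as higher in KO, and no member was counted as lower. Over all 10770 genes at 1 FPKM or more, 2.21% were counted as higher and 2.95% as lower. With a smaller size rule of 0.5, 5 members were higher (Cd37, Cd82, Tspan2, Tspan7 and Tspan18) and 1 was lower (Tspan32), where 10.5% of all genes were higher and 10.1% lower. The median log2 ratio was 0.06 over the 22 members (quartiles -0.02 and 0.26) and 0.004 over all genes (quartiles -0.24 and 0.24). Within 0.25 of no difference on the log2 scale lay 15 of the 22 members and 51.5% of all genes. The ratio was above 0 for 14 members and below 0 for 8. With the KO library or both libraries rescaled, in any of 3 ways, it was above 0 for 18 and below 0 for 4, as Cd9, Tspan3, Tspan31 and Tsg101 lay at most 0.03 below 0. In bulk libraries such as these, fewer cells of a type and less RNA per cell cannot be told apart.

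**Figure D1:**
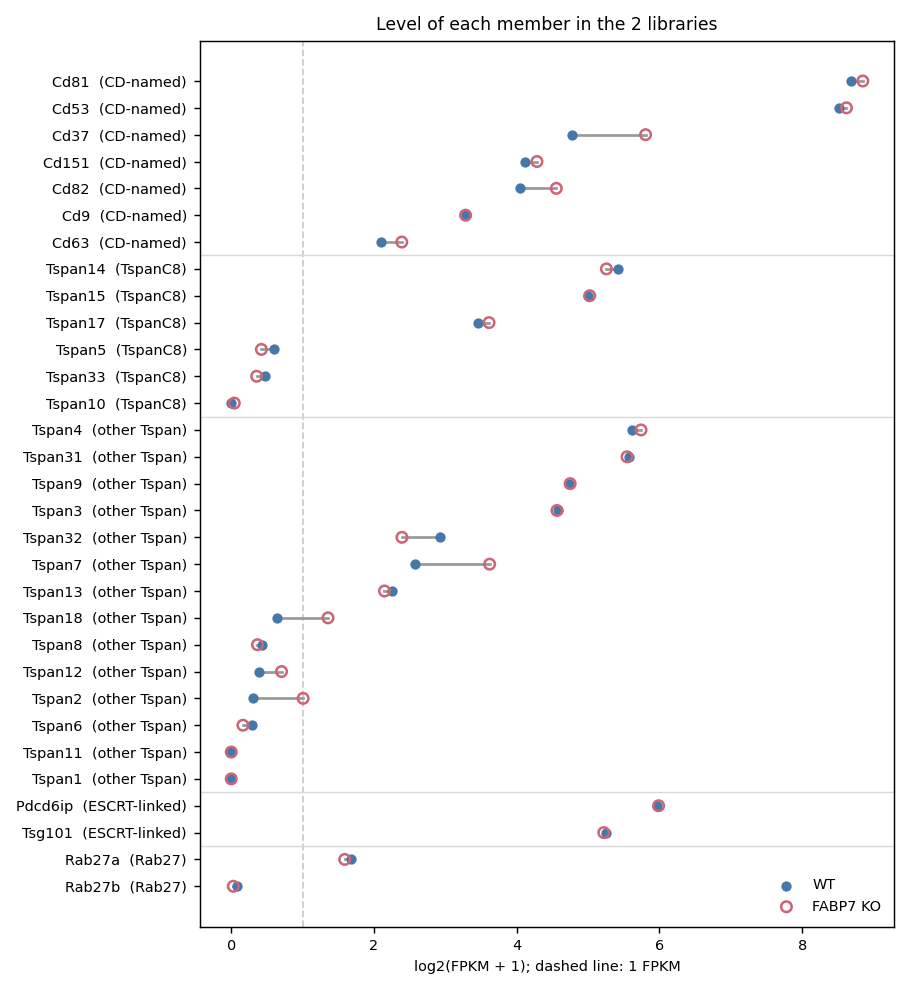
Each row is 1 of the 31 members, grouped by role, and the horizontal axis is log2(FPKM + 1), with filled points for the WT and open points for the KO library and a dashed line at 1 FPKM. Cd81 and Cd53 sit far to the right of all other members in both libraries, and the longest gaps between the points belong to Tspan7, Cd37, Tspan18, Tspan2, Tspan32 and Cd82.

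Among the CD-named tetraspanins, Cd81 and Cd53 dominated the family. Cd81 (ENSMUSG00000037706), a widely expressed tetraspanin and a standard exosome marker, was at 409 FPKM in WT and 461 in KO, ranking 156th and 99th of all genes by level. Cd53 (ENSMUSG00000040747), a tetraspanin of leukocytes, was at 367 FPKM in WT and 393 in KO. Together they made up 71.2% of the summed FPKM of the 27 tetraspanins in WT and 70.4% in KO. The KO level was 1.13-fold that of WT for Cd81 (1.1 to 1.15) and 1.07-fold for Cd53 (1.04 to 1.1). As deposited, these differences were beyond counting error, with log2 ratios of 0.17 and 0.10, inside the quartiles of all genes given above. With the libraries rescaled, the log2 ratios were 0.21 to 0.22 for Cd81 and 0.14 to 0.15 for Cd53. The choice of scaling thus moved Cd81, and Cd53 in some rescalings, by more than counting error.

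Cd37 (ENSMUSG00000030798), which regulates signaling in leukocytes and is best known from B cells, was at 26.5 FPKM in WT and 55.0 in KO. This is a log2 ratio of 1.03 and a fold of 2.08 (1.96 to 2.2), just past the size rule. Cd37 stood 7th among the tetraspanins in WT and 3rd in KO, where its counting interval met that of Tspan4. Cd82 (KAI1), known as a suppressor of metastasis in tumor cells, was at 15.5 FPKM in WT and 22.5 in KO, a log2 ratio of 0.52 and a fold of 1.46 (1.33 to 1.6), short of the rule. Cd151, which binds laminin-binding integrins, was at 16.3 and 18.5 FPKM, a fold of 1.13 (1.03 to 1.25). The abundant Cd81 and Cd53 thus had folds near 1, and the largest ratio among the CD-named members was that of Cd37, a gene of middle level.

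The other markers by which exosomes are commonly identified were low or level. Cd63 (ENSMUSG00000025351), a tetraspanin of late endosomes and lysosomes, was listed at 3.27 FPKM in WT and 4.24 in KO, a fold of 1.3 (1.08 to 1.56). The level of Cd81 was 125 times that of Cd63 in WT and 109 times in KO. Of the 50-base stretches in the coding transcript of Cd63, 36.5% also occur in another annotated gene, the pseudogene Cd63-ps, which is not among the genes of the table, and the sources used here do not say how reads that match 2 genes were counted. The low value is therefore uncertain as a level. Cd9, an exosome marker also abundant on platelets and needed on the egg for fusion with sperm, was at 8.81 FPKM in WT and 8.74 in KO, a fold of 0.992 (0.844 to 1.16). Of the 50-base stretches in the coding transcript of Cd9, 15.5% also occur in other annotated genes.

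The TspanC8 group, which escorts the protease ADAM10 to the surface and sets its activity, has 6 members, and 3 were at 1 FPKM or more. Tspan14 was at 41.6 FPKM in WT and 37.2 in KO, a fold of 0.895 (0.838 to 0.955). Tspan15 was at 30.9 and 31.5 FPKM, and Tspan17 at 9.98 and 11.2 FPKM, with counting intervals that hold a fold of 1. Tspan5, Tspan33, which is known from erythroid progenitors and activated B cells, and Tspan10 were under 1 FPKM in both libraries, with 0.52 FPKM in WT the highest value, for Tspan5. The summed level of the group was 83.4 FPKM in WT and 80.6 in KO. Adam10 itself was at 128 FPKM in WT and 118 in KO.

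Of the 14 other tetraspanins, 9 were at 1 FPKM or more. Tspan4, a component of migrasomes, the vesicles that migrating cells leave on their retraction fibers, was at 48.0 FPKM in WT and 52.5 in KO, a fold of 1.1 (1.03 to 1.17). Tspan31 was at 46.5 and 45.7 FPKM, Tspan9, known from platelets, at 25.5 and 25.9 FPKM, and Tspan3 at 22.9 and 22.7 FPKM. For these last 3 the counting interval of the fold holds 1. Tspan13 was at 3.75 FPKM in WT and 3.43 in KO, with an interval that also holds 1. The annotated exons of Tspan31 overlap those of Cdk4 on the opposite strand over 641 bases (29.2% of its exons), and those of Tspan4 overlap Chid1 on the opposite strand. The library protocol describes no step that marks the strand, so reads of such pairs cannot be separated by strand. Cdk4 was at 54.5 FPKM in WT and 39.5 in KO, and Chid1 at 14.0 and 13.1 FPKM.

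Tspan7 (ENSMUSG00000058254), best known from the nervous system, where mutations cause X-linked intellectual disability, was at 4.96 FPKM in WT and 11.3 in KO. Its log2 ratio of 1.05 was the highest of all members, with a fold of 2.28 (2.07 to 2.51), and it stood 15th among the tetraspanins in WT and 12th in KO, where its counting interval met that of Tspan17. Tspan18, known from endothelial cells, was at 0.56 FPKM in WT and 1.56 in KO, a fold of 2.79 (2.15 to 3.64). Tspan2, known from oligodendrocytes, was at 0.24 FPKM in WT and 1.01 in KO, a fold of 4.21 (2.61 to 7.37) on about 20 and 85 fragments. Tspan2 and Tspan18 entered only through their KO value and so had to be higher there, and their log2 ratios of 0.70 and 0.71 are held down by the added 1 FPKM. With 0.1 FPKM added instead, the ratios were 1.71 for Tspan2 and 1.33 for Tspan18, past the rule.

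Tspan32 (ENSMUSG00000000244), a tetraspanin of blood cells that restrains T cell proliferation, was the member with the lowest ratio. It was at 6.60 FPKM in WT and 4.25 in KO, a log2 ratio of -0.53 and a fold of 0.644 (0.572 to 0.724). Tspan32 lies on chromosome 7 of GRCm38 33.1 kb from Cd81, which had a log2 ratio of 0.17, with no coding gene between them. Tspan18 and Cd82, 84.6 kb apart on chromosome 2 with no coding gene between, had log2 ratios of 0.71 and 0.52. The antisense genes Tspan32os and Tspan2os are annotated over exons of Tspan32 and Tspan2 and are not among the genes of the table, so their reads could not be set apart. Neighboring members lay on either side of 0 in the first pair and on the same side in the second.

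**Figure D2:**
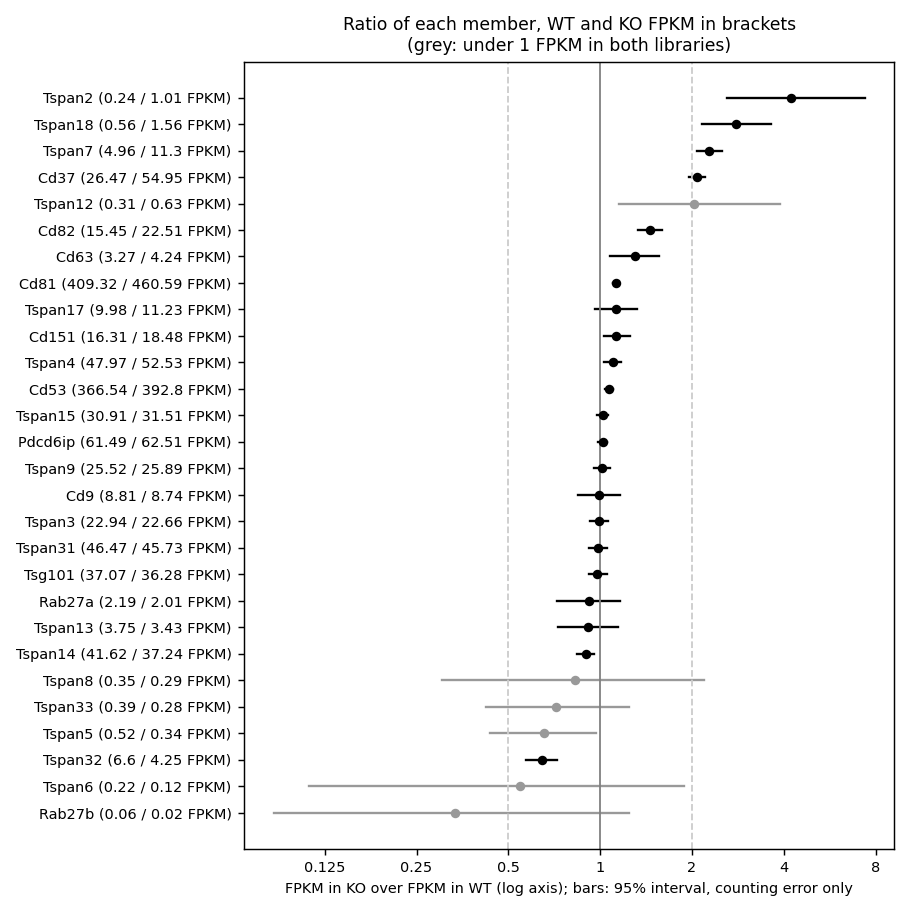
Each row is a member with a value above 0 in both libraries, placed by its fold, the FPKM in KO over that in WT, on a log axis, with bars for the 95% interval of counting error and the FPKM of WT and KO in brackets. Dashed lines mark folds of 0.5 and 2, and grey marks the members under 1 FPKM in both libraries, of which Rab27b, Tspan6 and Tspan8 have the widest bars.

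The remaining tetraspanins were low. Tspan1, Tspan5, Tspan6, Tspan8, Tspan10, Tspan11, Tspan12 and Tspan33, with Rab27b, make up the 9 members under 1 FPKM in both libraries. Tspan12, which assists Norrin signaling in retinal endothelium, was at 0.31 FPKM in WT and 0.63 in KO, a fold of 2.03 (1.15 to 3.87) on about 18 and 37 fragments. Tspan8, a tetraspanin of gut epithelium and its tumors, was at 0.35 and 0.29 FPKM, and Tspan6 at 0.22 and 0.12 FPKM. Tspan1 and Tspan11 were listed at 0 in both libraries, where 3 fragments would give 0.0726 and 0.0317 FPKM in WT. A difference in any of these 8 genes other than Tspan12 and Tspan5 was not detectable at this depth, and for Tspan5 the interval of the fold, 0.654, ran from 0.436 to 0.967.

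Cd81 and Cd53 led the order of the tetraspanins by level in both libraries. In WT 17 of them were at 1 FPKM or more, and the counting intervals of neighbors in the order met in 5 of the 16 adjacent pairs, Tspan4 with Tspan31, Cd37 with Tspan9, Cd151 with Cd82, Tspan17 with Cd9, and Tspan13 with Cd63. In KO 19 were at 1 FPKM or more, and 5 of the 18 adjacent pairs met, Cd37 with Tspan4, Tspan3 with Cd82, Tspan7 with Tspan17, Tspan32 with Cd63, and Cd63 with Tspan13. The summed level of the 27 tetraspanins was 1089 FPKM in WT and 1212 in KO, a fold of 1.11, most of which came from the difference in Cd81 (51.3 FPKM), Cd37 (28.5 FPKM) and Cd53 (26.3 FPKM).

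The ESCRT-linked members outside the family had folds near 1. Pdcd6ip (ENSMUSG00000032504), which encodes the ESCRT adaptor ALIX, was at 61.5 FPKM in WT and 62.5 in KO, a fold of 1.02 (0.985 to 1.05). Tsg101, the ESCRT-I subunit used as an exosome marker, was at 37.1 and 36.3 FPKM, a fold of 0.979 (0.916 to 1.05), with 28.2% of its coding transcript shared with the pseudogene Tsg101-ps, which is not among the genes of the table. Both intervals, taken from the deposited values, hold a fold of 1. For Pdcd6ip the log2 ratio was 0.02 as deposited and 0.06 to 0.07 with the libraries rescaled. In 1 of the rescalings this shift was larger than counting error. Rab27a was low, at 2.19 FPKM in WT and 2.01 in KO, a fold of 0.918 (0.721 to 1.16), and Rab27b was at 0.06 and 0.02 FPKM, on about 11 and 4 fragments.

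Genes that work with the members were read from 6 lists of 90 genes, of which 73 were at 1 FPKM or more. None of the 73 was counted as higher or lower, where 2.21% of all genes were higher and 2.95% lower. Under each of the 3 rescalings 3 list genes were counted as higher, and 5 were with 0.1 FPKM added in place of 1. The count over all genes rose as well. It went from 238 higher to 262, 268 and 512 under the rescalings, and to 562 of 10770 with 0.1 FPKM added. The median log2 ratio of the 73 was 0.09, against 0.06 for the members and 0.004 for all genes. With the size rule of 0.5, 7 were higher and 1 lower, beside 10.5% and 10.1% of all genes.

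Of 15 tetraspanin partners 12 were measured, with a median log2 ratio of 0.01. Itgb1, the integrin beta chain bound by CD151 complexes, was at 183 FPKM in WT and 184 in KO, and Ifitm3, an interferon-induced membrane protein, at 1030 and 922 FPKM. Ifitm1 was at 4.23 and 9.24 FPKM (log2 ratio 0.97), just short of the rule, and Itga4 at 41.1 and 34.5 FPKM. Of 4 tetraspanins outside the rule, Upk1a and Prph2 were listed at 0 in both libraries, Upk1b was under 1 FPKM in both and Rom1 was at 0.84 FPKM in WT and 1.21 in KO.

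The ESCRT list was the most even, with 26 of 28 genes measured, a median log2 ratio of 0.06 and a range from -0.43 to 0.23. Its lowest ratios were those of the ESCRT-II subunits Snf8, at 29.3 FPKM in WT and 21.5 in KO, and Vps36, at 15.5 and 11.2 FPKM, and the third subunit, Vps25, was at 55.0 and 46.1 FPKM (log2 ratio -0.25). The ESCRT-III genes Chmp4b and Chmp2a were at 123 and 84.9 FPKM in WT and 113 and 76.5 FPKM in KO. All 3 ESCRT-II genes thus lay below 0 with none past the rule.

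In the syntenin and ceramide list 8 of 10 genes were measured, with a median log2 ratio of 0.19. Sdcbp, which encodes syntenin, the link between syndecans and ALIX, was at 413 FPKM in WT and 446 in KO, and the syndecan Sdc3 at 1105 and 1331 FPKM. The syndecan Sdc2 was at 3.98 and 8.94 FPKM, less than 0.01 short of the rule, and Sdc4 at 3.77 and 6.52 FPKM. Pld2, a phospholipase D of the syntenin route, was at 11.6 and 19.7 FPKM (log2 ratio 0.71). Smpd3, the neutral sphingomyelinase of the ceramide route, was under 1 FPKM in both libraries, at 0.36 and 0.17 FPKM. Sdc2, Sdc4 and Pld2 were the 3 genes of this list past a log2 ratio of 0.5.

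Of 22 genes for docking and release 15 were measured, with a median log2 ratio of 0.14, and Vamp7 could not be matched by symbol. Rab7, the GTPase of late endosomes, was at 211 FPKM in WT and 206 in KO, Vamp8, a SNARE of late endosomes, at 139 and 137 FPKM, and Rab35 at 26.5 and 32.8 FPKM. Tbc1d10c, a Rab GTPase activating protein of leukocytes, was at 0.43 and 1.15 FPKM. All 5 Sytl genes, whose products include effectors of Rab27, were under 1 FPKM in both libraries. Of the 11 other cargo markers, all measured, with a median of 0.08, the lysosomal membrane gene Lamp1 was at 959 FPKM in WT and 983 in KO, and Flot1 at 14.9 and 20.9 FPKM. Gapdh, a glycolytic enzyme often used for normalization, was the only gene of the 6 lists below -0.5, at 1053 FPKM in WT and 685 in KO (log2 ratio -0.62). Mfge8, a secreted vesicle protein that bridges apoptotic cells to phagocytes, was at 0.79 and 1.80 FPKM.

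**Figure D3:**
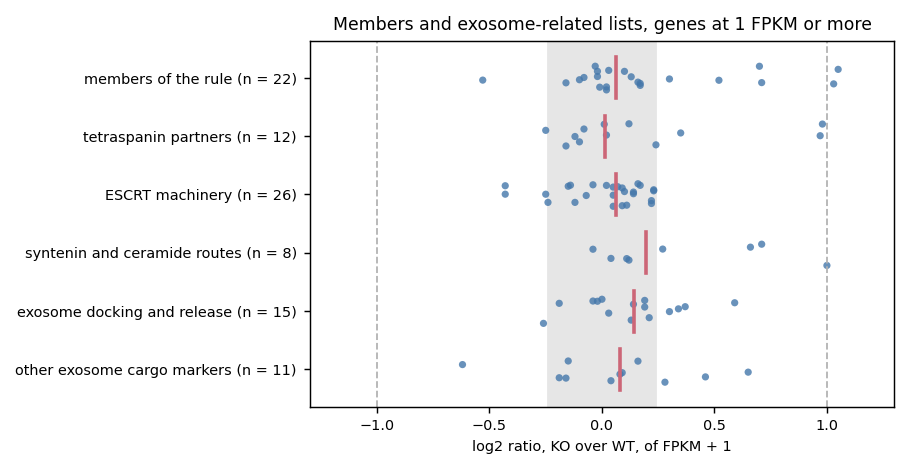
Points are genes at 1 FPKM or more in a library, placed by the log2 ratio of KO over WT (FPKM + 1) and set in rows by list, with red bars for the median of each list, grey shading for the quartiles of all genes and dashed lines at the size rule. The points of the ESCRT list stay between -0.43 and 0.23, and only Cd37 and Tspan7, in the top row, lie past a dashed line.

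Markers of other cell types differed between the libraries beside these members. The 16 markers of liver sinusoidal endothelial cells summed to 210 FPKM in WT and 385 in KO, all were measured, and 10 were counted as higher, among them Kdr at 4.42 and 14.9 FPKM and Clec4g at 14.2 and 48.5 FPKM. The 10 B and plasma cell markers summed to 38.4 and 76.3 FPKM, with 6 measured and 2 higher, Cd79a at 0.83 and 3.36 FPKM and Cd79b at 7.89 and 18.1 FPKM. Most of that sum was Cd22, at 24.7 and 43.0 FPKM, and Ms4a1, which encodes CD20, was at 0.18 and 0.99 FPKM. The 13 neutrophil markers summed to 40.4 FPKM in WT and 116 in KO, with 8 measured and 7 higher, while Ly6g was at 0.18 and 0.12 FPKM. Csf3r, the measured marker not counted as higher, held 27.3 and 51.3 FPKM of these sums. The 8 platelet markers summed to 7.84 and 14.5 FPKM, but only 1 was measured, Pf4 at 6.95 and 12.3 FPKM, which made up most of the sum. Gp1bb was at 0 in both, and Tubb1 was at 0.08 and 0.04 FPKM. The 18 hepatocyte markers summed to 620 FPKM in WT and 1229 in KO, most of it Trf at 306 and 642 FPKM and Alb at 144 and 305 FPKM. All 18 were measured and 4 were higher, with 1, Tat at 4.45 and 3.89 FPKM, below a log2 ratio of 0. The 8 monocyte markers summed to 952 and 461 FPKM, nearly all of it Plac8 at 908 and 427 FPKM, with 3 of the 7 measured markers above a log2 ratio of 0. The part of these cell types in the values of Cd37, Tspan7, Tspan18, Tspan2, Cd82 and Tspan12 was not tested. The 11 pan-macrophage markers summed to 13135 FPKM in WT and 16892 in KO, with none past the rule, and the 8 Kupffer cell markers to 14563 and 15114 FPKM, also with none. These sums hold moves in both directions. Of the pan-macrophage markers 9 lay above a log2 ratio of 0 and 2 below, the highest being Lyz2 at 1387 and 2631 FPKM (0.92). Of the Kupffer cell markers 5 lay above 0 and 3 below, the lowest being Marco at 1377 FPKM in WT and 714 in KO (-0.95).

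**Figure D4:**
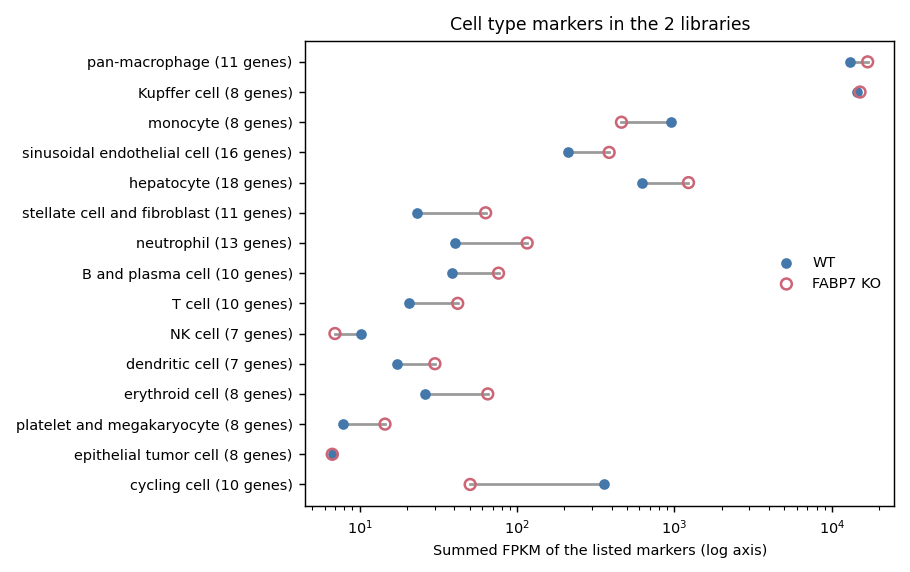
Each row is a list of cell type markers with its number of genes, and the horizontal axis is the summed FPKM of the list on a log axis, with filled points for the WT and open points for the KO library. The macrophage and Kupffer cell lists lie between 13135 and 16892 FPKM, the cycling cell list is at 355 FPKM in WT and 50.4 in KO, and the lists of endothelial cells, hepatocytes, stellate cells, neutrophils, B cells, T cells, dendritic cells, erythroid cells and platelets have the higher sum in KO. Most of the T cell sum is Icos, at 13.9 FPKM in WT and 33.1 in KO. Of the 5 measured T cell markers 4 lie above a log2 ratio of 0 and 1, Thy1, below. Most of the dendritic cell sum is Clec9a, at 15.4 and 25.8 FPKM. Of the 3 measured dendritic cell markers 2 lie above 0 and 1, Xcr1, below.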

How the data were processed

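mRNA of F4/80-selected liver macrophages was sequenced in 1 WT and 1 FABP7 KO library. The authors deposited FPKM values with 2 decimals for 22322 genes. Bowtie2 2.2.8 and TopHat2 2.1.1 are listed in the processing notes of the submitters, without a role for either. The sources used here give neither the genome build and annotation nor the tool that counted fragments. The tables of single libraries held the same values as the table of both (44644 values). Columns were assigned to genotypes by their names and the sample titles.

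Symbols were matched by Ensembl gene ID through GENCODE M21 for 22267 genes, and 55 had none. From the deposited FPKM, log2 ratios were taken with a pseudocount of 1, a floor of 1 FPKM in at least 1 library and a size rule of 1. No test was possible with 1 library per genotype. Depth was estimated from the steps between low FPKM values of genes with 1 annotated transcript and at most 600 exon bases. Of the depths tried, the one with the largest share of values within 0.15 of a whole fragment was taken. This share was 89.6% of 77 in WT and 93.4% of 76 in KO. An even spread gives 30% at any single depth, but the depth was picked for the largest share, so the comparison does not check it. The depth estimate assumes GENCODE exon lengths close to the authors'. The ratio, the size rule and the counting interval were tested on simulated data with this depth taken as given, so the depth estimate itself was not tested. Shared sequence was counted as 50-base stretches of the transcript that also occur in another annotated gene. Coding sequences were taken from GENCODE, and protein sequences were not used here.

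The members and lists were chosen with earlier results of these data known. Members at 10 FPKM or more, members past the size rule, Cd63 and Tsg101 were to be described in full, with the rest by range, and each list by at most 4 genes of large ratio and 2 of high mean. Further genes were named after their values were seen, among them members below 10 FPKM, Adam10, Smpd3, Upk1a, Upk1b, Prph2, Cdk4, Chid1 and single markers. Alternatives were 3 other scalings, of the KO library alone or of both libraries to the same total, other pseudocounts, floors and size rules, summed rows of one symbol, and other choices of members. Python 3.11.15, NumPy 2.4.6, pandas 2.3.3, SciPy 1.17.1, Matplotlib 3.10.9 and Biopython 1.88 were used. The values of most genes of the lists are not printed, and those of 1 gene that the rule would name are not reported here.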

Additional observations from a re-analysis of the deposited data

How the results depend on the processing

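With 1 library per genotype there was no replicate to leave out. No paired analysis was possible because each group has 1 library. Of 279 values of single members under other settings, 271 moved by no more than their counting error and 8 moved by more. Many of the 271 could not move, since floors and size rules leave a ratio as it is. Summing rows of one symbol also left the ratios unchanged, and members without an interval could not count as moved. The 8 were Cd81 under all 3 scalings, Cd53 and Pdcd6ip under some of them, and Tspan2 and Tspan18 with 0.1 FPKM added. None reversed among the members past the size rule, Cd37 and Tspan7. Cd37 and Tspan7 stayed past the size rule under all 3 scalings and with 0.1 FPKM added, but these settings could not have moved them below it. All 3 scalings raise KO against WT, by factors of 1.03 to 1.04, and a smaller added value raises the ratio of any gene higher in KO. A scaling that lowers KO was not tried. The members counted as higher were 4 with each library rescaled to the same total or with 0.1 FPKM added, when Tspan2 and Tspan18 joined them, 0 with a size rule of 1.5, and 5 higher and 1 lower with 0.5. As deposited, Tspan2 and Tspan18 entered only through their KO value and so had to be higher there. Over all genes the count of higher genes also rose, from 238 to 512 with the same total and to 562 with 0.1 FPKM added. The rescaling to the same total makes the added 1 FPKM weigh less by construction. The members' median ran from 0.02 without a floor to 0.128 for the tetraspanins alone, and was 0.0996 without the 5 members with over 10% of shared sequence, a choice made after seeing the data. Genes of the 6 lists counted as higher were 3 under each of the 3 scalings, 5 with 0.1 FPKM added, and 7 higher and 1 lower with the rule of 0.5. Over all genes, against 238 higher and 318 lower, 512 were higher and 376 lower after rescaling to the same total, 562 and 444 with 0.1 FPKM added, 143 higher with a floor of 5 FPKM, 50 and 139 with the rule of 1.5, and 1136 and 1089 with 0.5. The list of tetraspanins outside the rule has 1 measured gene, Rom1, so its median of 0.264 is that gene's ratio, and it was 0.394 after rescaling to the same total, 0.479 with 0.1 FPKM added and, over all 4 listed genes, 0.0367 without a floor. That of the syntenin and ceramide list was 0.315 after rescaling to the same total, and that of docking and release was 0.0395 without a floor. The cause was not tested where none is named.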
